A study of Mus musculus with 10 samples.

Results

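The genes described here encode proteins of the contractile fiber of skeletal muscle and were chosen by symbol, as a list of 33 genes, from the 27919 in an RNA sequencing table of mouse melanoma tumors. All 33 were found in the table. By textbook roles, 8 belong to the thin filament and its nebulin ruler, 9 to the thick filament and titin, 7 to the Z-disc and desmin, 4 to calcium handling and 5 to energy and oxygen supply. By fiber type, 14 are fast fiber genes, 4 are slow fiber genes and 15 are shared.

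Tumors were grown from B16F10, a pigmented melanoma line, made either to overexpress Ly86 or to carry the vector alone. Every mouse, in both groups, had been given anti-PD-1 and anti-CTLA4 antibodies, which block inhibitory receptors of T cells, in 4 rounds, and no group went without them. The 10 libraries of polyadenylated RNA came from 7 tumors, 4 with Ly86 and 3 with vector, snap-frozen at harvest. Ly86 tumor 1, vector tumor 1 and vector tumor 2 were each divided into 2 pieces with a library each, and the tumor was taken as the replicate. Tumor site, and the strain, sex and age of the mice, are not given in the sources used here, nor is whether each tumor came from its own mouse. The p-values therefore reflect variation among these tumors only, which can be partly technical.

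In a muscle fiber, myosin of the thick filament pulls on actin of the thin filament, between Z-discs that anchor the actin. Calcium released from the sarcoplasmic reticulum binds troponin and frees actin for myosin. Fast and slow fibers carry different forms of myosin, troponin and the calcium pump, so the mRNA of these forms is used to tell fiber types apart.

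Each library had a value above 0 for 19304 to 21882 genes. Values are log2(TPM + 1), where TPM is a transcript level corrected for transcript length and scaled to the same total in each library, so read depth is unknown and no counting error is given. The introduced gene, Ly86, had 49.2 to 81.9 TPM in the 5 libraries of Ly86 tumors and 6.24 to 80.9 TPM in the 5 of vector tumors, where only the library labelled as the first piece of vector tumor 2 was above 30.3 TPM. For this gene that library lay in the range of the Ly86 libraries, though labelled vector. Its sum over 10 melanocyte lineage genes was the lowest of all libraries, at 10427 TPM. Its sum over 10 fibroblast genes was the highest, at 4888 TPM. Whether its label or its tissue makeup goes with its Ly86 level was not tested. Group differences of the tested heavy chain genes and the 2 most abundant members of each role are therefore also given without that library. So are the medians over members. Differences of Actn2 and of genes on the other lists are given only with that library included. Pieces and tumors are named as labelled. Summed over 10 genes of the melanocyte lineage, levels were 14603 to 21447 TPM in Ly86 libraries and 10427 to 20278 TPM in vector libraries, so the labelled tumor type had its markers in every library. The labels give no batch.

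Promoters of 4 members are shown because their genes span the patterns described below. Acta1 and the neighboring myosin genes Myh1 and Myh4 had widely different levels between libraries, whereas Eno3 was present in all. Sequences are from RefSeq on GRCm38.p6, another build than the mm39 the submitters' processing notes name, and run 5′ to 3′ from 250 bases before to 50 after the gene's start. Capitals mark matches, on either strand, to the E-box CANNTG, which myogenic factors such as MyoD bind, or to the MEF2 motif.
Acta1, chr8:123894726-123895025, minus strand: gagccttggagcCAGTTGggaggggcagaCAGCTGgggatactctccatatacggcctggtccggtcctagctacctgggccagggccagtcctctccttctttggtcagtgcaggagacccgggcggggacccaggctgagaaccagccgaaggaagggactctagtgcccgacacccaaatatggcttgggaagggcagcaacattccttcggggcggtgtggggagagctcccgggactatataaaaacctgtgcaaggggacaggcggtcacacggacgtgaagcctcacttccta
Myh1, chr11:67199852-67200151, plus strand: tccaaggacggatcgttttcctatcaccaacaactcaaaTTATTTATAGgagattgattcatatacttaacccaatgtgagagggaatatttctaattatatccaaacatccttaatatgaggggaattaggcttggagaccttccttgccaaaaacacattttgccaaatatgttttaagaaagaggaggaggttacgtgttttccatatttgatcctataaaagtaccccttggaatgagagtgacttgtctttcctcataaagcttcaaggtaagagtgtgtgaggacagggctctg
Myh4, chr11:67237562-67237861, plus strand: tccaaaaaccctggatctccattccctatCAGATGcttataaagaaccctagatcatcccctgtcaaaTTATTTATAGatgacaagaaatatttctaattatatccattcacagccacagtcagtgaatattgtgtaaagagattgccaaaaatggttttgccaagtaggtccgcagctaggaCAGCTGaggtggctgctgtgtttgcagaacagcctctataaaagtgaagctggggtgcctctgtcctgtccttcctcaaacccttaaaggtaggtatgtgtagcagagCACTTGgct
Eno3, chr11:70656926-70657225, plus strand: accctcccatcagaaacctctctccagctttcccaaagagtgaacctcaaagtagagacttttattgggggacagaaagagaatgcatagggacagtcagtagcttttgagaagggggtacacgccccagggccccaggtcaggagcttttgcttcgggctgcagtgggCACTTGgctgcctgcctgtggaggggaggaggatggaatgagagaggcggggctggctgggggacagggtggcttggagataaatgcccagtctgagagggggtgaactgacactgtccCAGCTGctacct
Acta1 has 2 E-box matches and no MEF2 match, Myh1 has 1 MEF2 match and no E-box match, Myh4 has 3 E-box matches and 1 MEF2 match, and Eno3 has 2 E-box matches. Of the 33 members, 26 were matched to a promoter. With 1 promoter a gene, an E-box was found in 21 of these 26 (80.8%) and in 72.1% of all 27025 genes with a promoter. MEF2 was found in 4 of 26 (Myh1, Myh4, Pvalb and Ttn; 15.4%) and in 3.26% of all genes. The CArG box, bound by serum response factor, was found in 3 of 26 and in 1.57% of all genes, and the letters TATAAA in 6 of 26 and in 14.2%. These counts describe letters in a window and not binding, and a MEF2 match can overlap the letters TATAAA, as it does in Myh1 and Myh4, which carry the same MEF2 match.

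Muscle genes were present in all libraries, but at very unequal levels. Their summed level was 83.4 TPM in the first and 1875 TPM in the second piece of Ly86 tumor 1, and 703, 47.7 and 62.1 TPM in Ly86 tumors 2, 3 and 4. Among vector tumors it was 128 and 479 TPM in the first and second pieces of tumor 1, 582 and 82.9 TPM in those of tumor 2, and 343 TPM in tumor 3. High and low libraries were thus found in both groups and within each divided tumor. At its highest the sum was 0.188% of all TPM in a library and at its lowest 0.0048%. In bulk tissue, fewer cells of a type and less RNA per cell cannot be told apart.

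**Figure D1:**
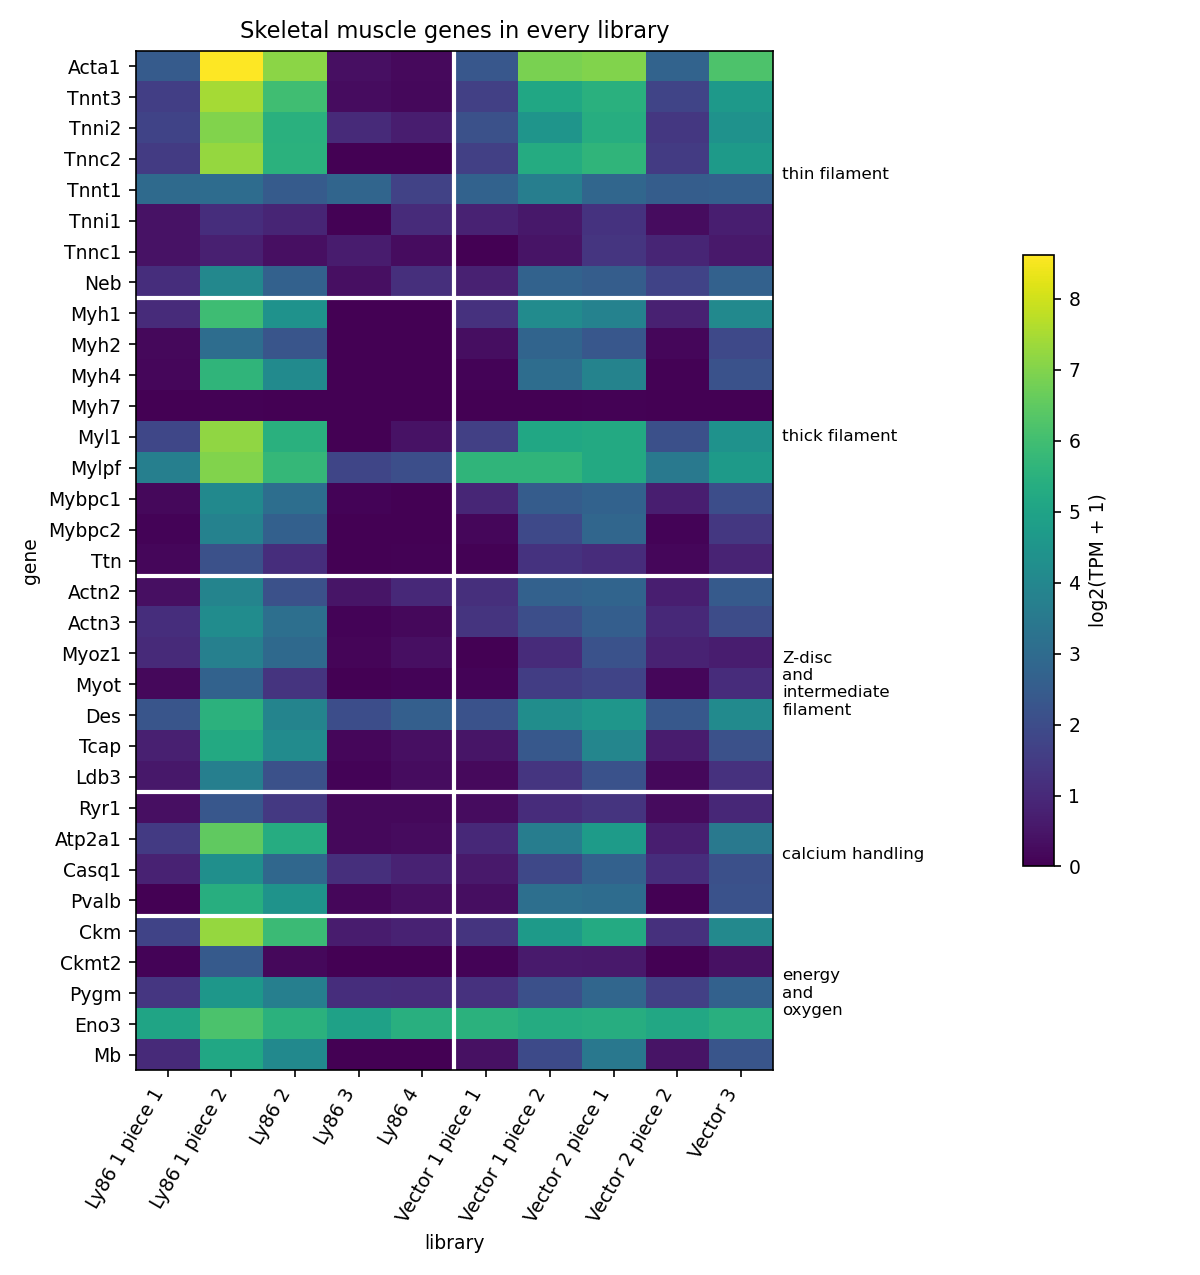
Level of each of the 33 muscle genes (rows, by role) in each of the 10 libraries (columns, Ly86 left of the line and vector right), as log2(TPM + 1) by color. The second piece of Ly86 tumor 1 is brightest, Ly86 tumors 3 and 4 are darkest, and the row of Eno3 is bright in all libraries.

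The members rose and fell together from library to library. In the second piece of Ly86 tumor 1, 30 of 33 members had their highest level, for Myh7 tied with another library. For 26 of 33 the 5 highest libraries were the 5 with the largest sums, namely the second piece of Ly86 tumor 1, Ly86 tumor 2, the second piece of vector tumor 1, the first piece of vector tumor 2 and vector tumor 3. The members themselves set those sums, so this count is a description. The same 5 libraries were highest for 0.721% of the 14556 genes with a mean of at least 1 TPM over tumors. Among the 27 members with such a mean they were highest for 23. Exceptions among the members were the slow fiber genes Tnnt1, Tnni1, Tnnc1 and Myh7, and Mylpf, Myoz1 and Eno3. Of the 33, 27 reached a mean of 1 TPM. The 6 that did not were Tnni1, Tnnc1, Myh7, Ttn, Ryr1 and Ckmt2. Over the 10 libraries the SD of log2(TPM + 1) had a median of 1.45 for the 27 and 0.29 for all 14556 genes, and 17 of the 27 stood at or above the 95th percentile. Tnnt1, Myot and Eno3 were below the 90th.

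In the thin filament, Acta1 encodes the actin of skeletal muscle. Its level was 4.61 and 392.9 TPM in the pieces of Ly86 tumor 1, and 138.9, 0.28 and 0.16 TPM in Ly86 tumors 2 to 4. In vector tumors it was 4.09 and 117 TPM in the pieces of tumor 1, 126 and 5.63 TPM in those of tumor 2, and 72.8 TPM in tumor 3. Ly86 tumors thus held both the highest and the lowest levels, with the vector tumors in between once pieces were averaged. Tnnt3, fast troponin T, which holds the troponin complex on tropomyosin, had 2.06 and 173.8 TPM in the pieces of Ly86 tumor 1, and 62.1, 0.23 and 0.13 TPM in Ly86 tumors 2 to 4. Its vector values were 2.10 and 34.1 TPM in tumor 1, 43.2 and 2.40 TPM in tumor 2, and 24.6 TPM in tumor 3. Fast troponins I (Tnni2, the inhibitory subunit) and C (Tnnc2, the calcium sensor) followed the same order of high and low libraries, from 0.63 to 127 TPM and from 0 to 152 TPM. Neb, the giant protein nebulin that spans the thin filament, ranged from 0.29 to 15.4 TPM.

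The thick filament is built of myosin heavy and light chains. Myh1, Myh2 and Myh4 encode the heavy chains of fast IIX, IIA and IIB fibers, lie next to each other on chromosome 11 and are alike enough that reads may be split between them. Myh1 was 1.10 and 60.9 TPM in the pieces of Ly86 tumor 1, and 19.9, 0.01 and 0 TPM in Ly86 tumors 2 to 4. In vector tumors Myh1 was 1.34 and 17.0 TPM in the pieces of tumor 1, 13.1 and 0.75 TPM in those of tumor 2, and 16.2 TPM in tumor 3. Ly86 tumors 3 and 4 were at or near 0 for this gene and for its neighbors. Myh4 was 0.11 and 48.8 TPM in the pieces of Ly86 tumor 1, 16.4 TPM in Ly86 tumor 2 and 0 in Ly86 tumors 3 and 4. Its vector values were 0.07 and 7.37 TPM in tumor 1, 13.4 and 0.03 TPM in tumor 2, and 3.54 TPM in tumor 3. Both genes had their peak in the same piece, and Myh4 was the lower of the pair in every library with a value except the first piece of vector tumor 2. Myh2 was 0.15 and 7.50 TPM in the pieces of Ly86 tumor 1, 3.82 TPM in Ly86 tumor 2 and 0 in Ly86 tumors 3 and 4. For Myh2 the vector values were 0.25 and 5.90 TPM in tumor 1, 4.05 and 0.11 TPM in tumor 2, and 2.72 TPM in tumor 3. Myh7 encodes the heavy chain of slow fibers and is also a gene of heart muscle. It was 0.03 TPM in the second piece of Ly86 tumor 1 and the first of vector tumor 2. In the other 8 libraries Myh7 was listed at 0.

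Other genes of the same chromosome 11 cluster were low. Myh3, the embryonic heavy chain, reached at most 0.33 TPM and Myh8, the perinatal one, at most 0.26 TPM, where Myh1 reached 60.9 TPM.

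The light chains Myl1 and Mylpf bind the neck of fast myosin. Myl1 was 2.61 and 144.8 TPM in the pieces of Ly86 tumor 1, and 43.5, 0 and 0.35 TPM in Ly86 tumors 2 to 4. In vector tumors Myl1 was 2.11 and 33.8 TPM in tumor 1, 37.1 and 3.26 TPM in tumor 2, and 20.2 TPM in tumor 3. Mylpf was 12.0 and 127 TPM in the pieces of Ly86 tumor 1, and 52.3, 2.49 and 3.22 TPM in Ly86 tumors 2 to 4. In vector tumors Mylpf was 48.5 and 48.9 TPM in the pieces of tumor 1, 36.8 and 10.2 TPM in those of tumor 2, and 24.8 TPM in tumor 3. The pieces of vector tumor 1 were thus nearly equal for Mylpf while 16.0 times apart for Myl1. The Mylpf to Myl1 ratio of TPM was 0.874 to 1.44 in the 5 libraries with the largest muscle sums, 23.0 in the first piece of vector tumor 1, and 3.14 to 9.20 in 3 of the remaining libraries, with no ratio in Ly86 tumor 3, where Myl1 was listed at 0. In the first piece of vector tumor 1 Mylpf made up 37.8% of the summed level of all 33 members. Mybpc1 and Mybpc2, the myosin-binding proteins C named slow and fast, reached 15.9 and 13.2 TPM in the second piece of Ly86 tumor 1. Despite that name, Mybpc1 is counted here among the shared genes and not the slow ones. Ttn, the molecular spring titin, reached 3.42 TPM in the same piece.

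At the Z-disc, Des encodes desmin, the intermediate filament that links neighboring Z-discs and is also made by smooth muscle. Des was 3.82 and 45.8 TPM in the pieces of Ly86 tumor 1, and 13.7, 3.08 and 5.09 TPM in Ly86 tumors 2 to 4. Its vector values were 3.56 and 17.6 TPM in tumor 1, 22.2 and 4.22 TPM in tumor 2, and 16.6 TPM in tumor 3. No library was without desmin mRNA. Tcap, telethonin, which caps titin at the Z-disc, was 0.69 and 36.7 TPM in the pieces of Ly86 tumor 1, and 17.0, 0.12 and 0.28 TPM in Ly86 tumors 2 to 4. Tcap was 0.40 and 4.18 TPM in vector tumor 1, 14.7 and 0.57 TPM in vector tumor 2, and 3.42 TPM in vector tumor 3. It lay lower in vector tumor 1 than in the matching high piece of vector tumor 2. The actin cross-linkers Actn2 and Actn3 reached 13.9 and 17.1 TPM, and Myoz1, Myot and Ldb3, other Z-disc proteins, 12.6, 5.48 and 12.3 TPM, all in the second piece of Ly86 tumor 1.

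Among calcium handling genes, Atp2a1 encodes SERCA1, the pump that returns calcium to the reticulum of fast fibers. Atp2a1 was 1.78 and 91.3 TPM in the pieces of Ly86 tumor 1, and 39.8, 0.14 and 0.19 TPM in Ly86 tumors 2 to 4. Vector values were 1.01 and 11.5 TPM in tumor 1, 25.5 and 0.67 TPM in tumor 2, and 10.2 TPM in tumor 3. Pvalb, parvalbumin, a calcium buffer of the fastest fibers, was 0 and 41.6 TPM in the pieces of Ly86 tumor 1, and 20.5, 0.12 and 0.27 TPM in Ly86 tumors 2 to 4. In vector tumors Pvalb was 0.26 and 7.83 TPM in tumor 1, 7.27 and 0 TPM in tumor 2, and 3.53 TPM in tumor 3. The 2 libraries listed at 0 for Pvalb were pieces whose other piece held several TPM or more. Casq1, which stores calcium, and Ryr1, the release channel, ranged from 0.50 to 18.8 TPM and from 0.13 to 4.08 TPM.

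Among energy genes, Ckm encodes muscle creatine kinase, which regenerates ATP. Ckm was 2.30 and 151 TPM in the pieces of Ly86 tumor 1, and 57.5, 0.59 and 0.77 TPM in Ly86 tumors 2 to 4. In vector tumors Ckm was 1.48 and 24.7 TPM in tumor 1, 37.6 and 1.28 TPM in tumor 2, and 15.6 TPM in tumor 3. Eno3, the muscle form of the glycolytic enzyme enolase, behaved differently. It was 32.1 and 70.9 TPM in the pieces of Ly86 tumor 1, and 44.7, 29.4 and 42.5 TPM in Ly86 tumors 2 to 4. Its vector values were 44.1 and 38.5 TPM in tumor 1, 40.7 and 34.7 TPM in tumor 2, and 42.4 TPM in tumor 3. Eno3 alone made up 61.7% and 68.5% of the summed muscle level in Ly86 tumors 3 and 4, where all other members together came to 18.3 and 19.6 TPM. Mb, the oxygen carrier myoglobin, ranged from 0 to 33.9 TPM, Pygm, muscle glycogen phosphorylase, from 1.12 to 22.8 TPM, and Ckmt2, the mitochondrial creatine kinase, from 0 to 4.47 TPM.

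Within a divided tumor the pieces differed widely, in a direction that was not tied to piece number. In Ly86 tumor 1 all 33 members were higher in the second piece, with a median first minus second difference of -3.29 log2 units against 0.0096 for all 14556 genes. At least 1 log2 unit separated the pieces for 29 of 33, against 4.03% of all genes in that direction. In vector tumor 1 the second piece was higher for 30 of 33, with a median of -1.54 against -0.13, and 23 of 33 passed 1 log2 unit against 3.87%. In vector tumor 2 it was the first piece that was higher, for 33 of 33, with a median of 1.99 against -0.0057, and 25 of 33 passed 1 log2 unit against 16.8%. None of the 33 passed 1 log2 unit in the opposite direction in any of the 3 tumors, against 2.30%, 1.29% and 2.44% of all genes. The 33 include 6 members below the mean of 1 TPM that all 14556 genes met. Of the 27 tested members, 26 passed 1 log2 unit in Ly86 tumor 1, 22 in vector tumor 1 and 24 in vector tumor 2. Their medians were -3.76, -1.89 and 2.19 in that order. With 1 library a piece these differences have no replicate check. Acta1 differed 85.2-fold between the pieces of Ly86 tumor 1, 28.7-fold in vector tumor 1 and 22.4-fold in vector tumor 2, as a ratio of TPM. Tnnt1, slow troponin T, differed 1.06-fold, 2.17-fold and 1.29-fold, and Eno3 2.21-fold, 1.14-fold and 1.17-fold, in the same order. In vector tumor 1 the members not higher in the second piece were Eno3, Tnni1 and Myh7, the last listed at 0 in both.

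**Figure D2:**
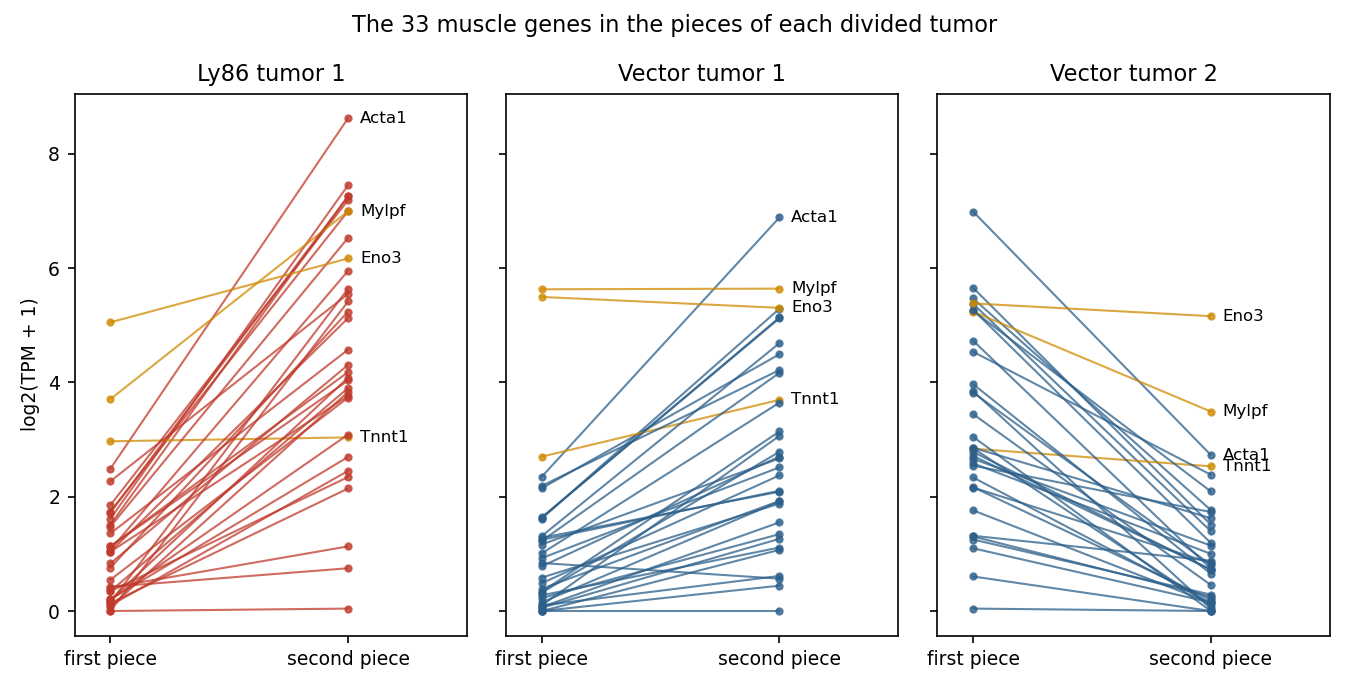
Level of the 33 muscle genes as log2(TPM + 1) in the first and second piece of each divided tumor, with 1 line a gene and Mylpf, Eno3 and Tnnt1 in orange. Nearly all lines climb from left to right in Ly86 tumor 1 and vector tumor 1 and drop in vector tumor 2, while the lines of Eno3 and Tnnt1 are flatter than that of Acta1 in all 3 tumors, at 1.06-fold to 2.21-fold.

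Fast fiber genes far exceeded slow ones where muscle mRNA was abundant. The 14 fast genes made up 46.5% to 55.3% of the summed muscle level in the 5 libraries with the largest sums, the 4 slow genes 0.486% to 2.67%, and the 15 shared genes, Acta1 and Ckm among them, the rest. Fast genes help set the sums by which those 5 libraries were picked, and 14 genes are set against 4, so these shares are a description. In Ly86 tumors 3 and 4 fast genes made up 11.4% and 9.59% and slow genes 14.0% and 5.70%. The fast heavy chains Myh1, Myh2 and Myh4 summed to 1.36 and 117 TPM in the pieces of Ly86 tumor 1, and to 40.1, 0.01 and 0 TPM in Ly86 tumors 2 to 4. In vector tumors the sums were 1.66 and 30.2 TPM in tumor 1, 30.6 and 0.89 TPM in tumor 2, and 22.4 TPM in tumor 3. Fast heavy chain mRNA exceeded that of Myh7 in 9 of 10 libraries, but in Ly86 tumor 3 only by 0.01 TPM, which cannot be told from 0 here, and in Ly86 tumor 4 all 4 genes were listed at 0. In the other 8 libraries the fast sum was at least 0.89 TPM and Myh7 at most 0.03 TPM. Fast troponin genes (Tnnt3, Tnni2, Tnnc2) summed to 453 TPM against 9.08 TPM for slow ones (Tnnt1, Tnni1, Tnnc1) in the second piece of Ly86 tumor 1, a ratio of 49.9. The ratio was 26.2 in Ly86 tumor 2, 7.33 in the second piece of vector tumor 1, 14.7 in the first of vector tumor 2 and 11.1 in vector tumor 3. In the low pieces it was 0.833, 1.21 and 1.01, and in Ly86 tumors 3 and 4 it was 0.189 and 0.215. Slow troponin level itself moved little, from 3.54 to 12.8 TPM, and most of it was Tnnt1, at 2.24 to 11.9 TPM. Tnni1 and Tnnc1 stayed at or below 1.38 and 1.49 TPM.

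Myosin heavy chain makeup differed among the 5 libraries with the largest muscle sums. Myh4 took 41.6% of the TPM of the 4 heavy chain genes in the second piece of Ly86 tumor 1, 40.9% in Ly86 tumor 2 and 43.7% in the first piece of vector tumor 2. It took 24.4% in the second piece of vector tumor 1 and 15.8% in vector tumor 3. Myh1 took the largest share in these libraries, 49.6% to 72.1%, except in the first piece of vector tumor 2 with 42.9%. Shares for Myh2 were 6.40% to 19.5%. Depth is unknown, so these shares have no counting interval.

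**Figure D3:**
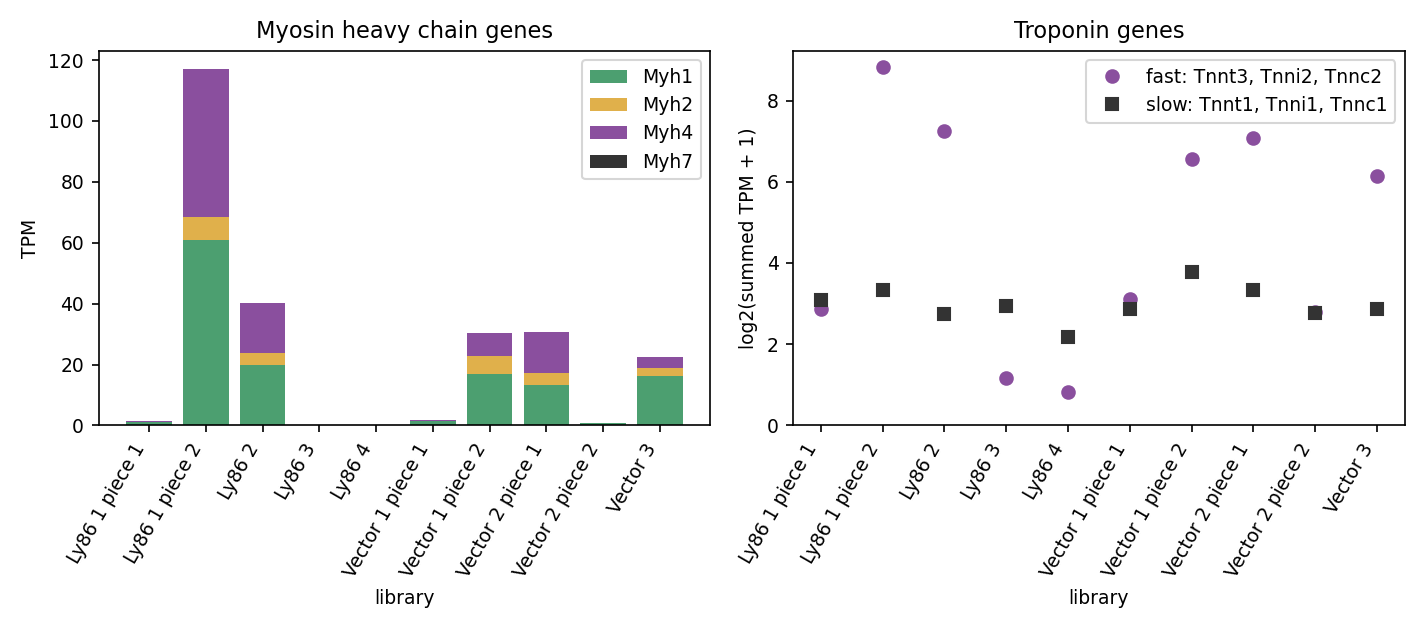
Left, TPM of the heavy chain genes Myh1, Myh2, Myh4 and Myh7 stacked by library. Right, log2 of summed TPM + 1 of fast and slow troponin genes. Myh7 is not visible at this scale, and slow troponins lie between 3.54 and 12.8 TPM in all libraries while fast ones span 0.76 to 453 TPM.

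In the comparison the design was made for, Ly86 against vector, no muscle gene was called. In limma's moderated test on log2(TPM + 1) across 14556 genes, 0 genes passed an adjusted p of 0.05 (0%), and 0 of the 27 muscle genes tested. The introduced gene Ly86 was among the genes tested and did not pass either. The lack of calls therefore does not show that muscle genes were equal between the groups. Without adjustment 1565 genes (10.8%) fell under a p of 0.05, 5.78% of all genes higher and 4.97% lower in Ly86 tumors, and 0 of the 27 did. The mean was lower in Ly86 tumors for 21 of the 27 and for 56.2% of all genes. That count moved both ways with the tumors and pieces used. It was 14 of 28 without Ly86 tumor 3 and 15 of 28 without Ly86 tumor 4. When the first piece of vector tumor 2 was left out it was 14 of 26, and with second pieces alone 11 of 28. It rose to 25 of 26 without Ly86 tumor 1 and 26 of 27 without Ly86 tumor 2. With first pieces alone, or without the second piece of Ly86 tumor 1, it was 25 of 26. For 0 of 33 members were the Ly86 tumors all above or all below the vector tumors, against 4.71% and 5.75% of all genes. The smallest adjusted p among the muscle genes was 0.652, for Actn2, with a Ly86 minus vector difference of -0.61 log2 units (SE 0.45).

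Single genes gave wide differences. Acta1 averaged 3.31 ± 3.56 log2(TPM + 1) (SD, n = 4) over Ly86 tumors, and over vector tumors 5.23 ± 0.86 (SD, n = 3), a difference of -1.91 (SE 1.69, limma adjusted p = 0.712). Myh1 averaged 1.98 ± 2.30 and 3.04 ± 0.94, a difference of -1.06 (SE 1.14, limma adjusted p = 0.774). The limma differences were -0.59 (SE 0.59) for Myh2, -0.15 (SE 0.99) for Myh4, -1.15 (SE 1.41) for Tnnt3, -1.21 (SE 1.32) for Myl1 and -1.15 (SE 1.01) for Mylpf. They were -0.49 (SE 0.49) for Des, -0.040 (SE 0.95) for Tcap, -0.40 (SE 1.25) for Atp2a1, 0.097 (SE 0.97) for Pvalb, -0.46 (SE 1.25) for Ckm and 0.0041 (SE 0.17) for Eno3. The SE was above 1 log2 unit for Acta1, Tnnt3, Myh1, Myl1, Mylpf, Atp2a1 and Ckm. Leaving out 1 tumor at a time moved the difference over -3.18 to -0.88 for Acta1, -2.22 to -0.29 for Tnnt3, -1.86 to -0.40 for Myh1 and -1.02 to -0.26 for Myh2. The ranges were -2.17 to -0.34 for Myl1, -1.82 to -0.51 for Mylpf and -0.76 to -0.14 for Des. The values closest to 0 came without Ly86 tumor 3 or 4, and the lowest without Ly86 tumor 2, or for Des without Ly86 tumor 1. When the first piece of vector tumor 2 was left out the differences were -1.20 for Acta1, -0.53 for Tnnt3, -0.56 for Myh1, -0.22 for Myh2, -0.69 for Myl1, -0.86 for Mylpf and -0.14 for Des. They were then 0.49 for Myh4, 0.51 for Tcap, 0.26 for Atp2a1, 0.61 for Pvalb, 0.22 for Ckm and 0.041 for Eno3.

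With pieces averaged, the SD was larger over Ly86 tumors than over vector tumors in all 13 of these genes, for Ckm 2.62 against 0.56. Of the 3 vector tumors 2 are means of a high and a low piece, and of the 4 Ly86 tumors 1 is. With first pieces alone the SD for Ckm was 2.44 against 2.03 and that for Acta1 3.23 against 2.48, and for Des the order turned, at 0.82 against 1.26. With second pieces alone it was 3.40 against 1.86 for Ckm. The difference in spread was not tested. Myh7 was below the level needed for testing.

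**Figure D4:**
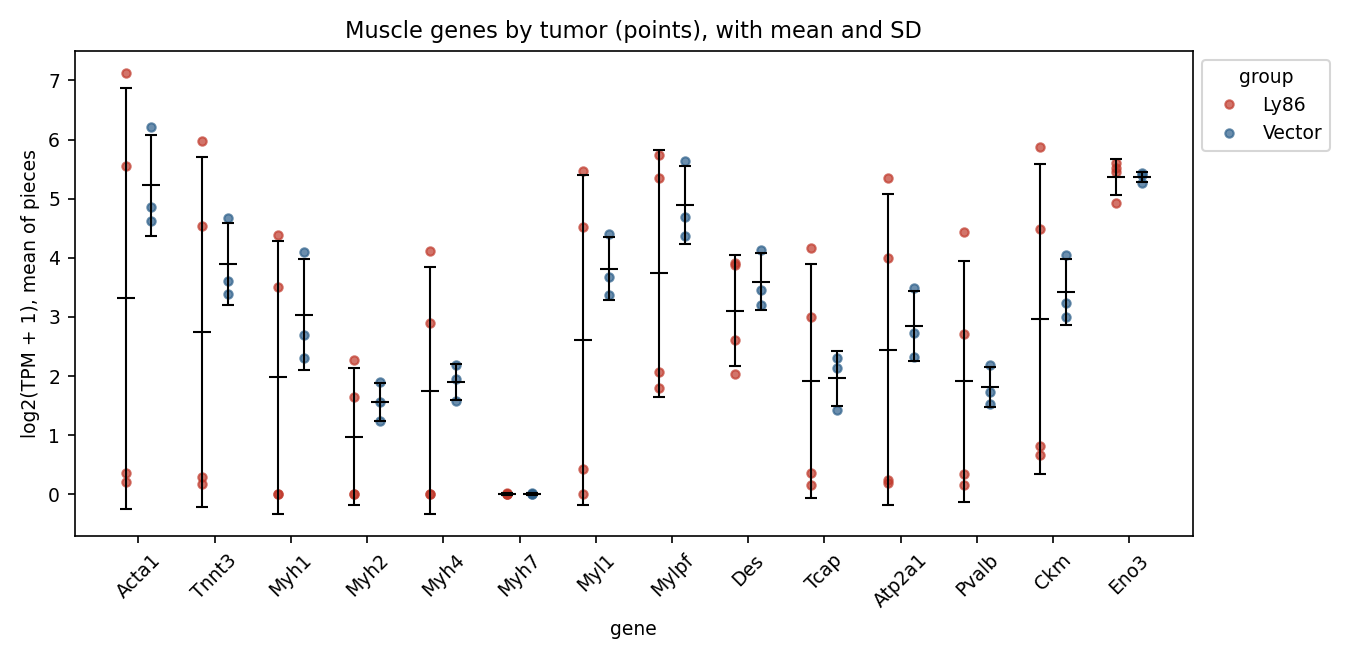
log2(TPM + 1) of 14 muscle genes in each tumor (points, pieces averaged), with Ly86 tumors in red and vector tumors in blue and bars for the mean and SD. In most genes a pair of Ly86 tumors lies above the vector mean and the other pair near 0, and the groups overlap in all 14.

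By role, the median difference over all listed genes was -0.65 for the thin filament, -0.49 for the thick filament, -0.25 for the Z-disc, 0.037 for calcium handling and 0.0041 for energy genes. Over all 33 members it was -0.25, over the 27 tested -0.40 and over all 14556 genes -0.037. For the 14 fast fiber genes it was -0.49 and for the 4 slow ones -0.096, and the difference between these was not tested. When the first piece of vector tumor 2 was left out the medians were -0.32 for the thin filament, -0.16 for the thick filament, 0.024 for the Z-disc, 0.32 for calcium handling and 0.22 for energy genes, with 0.024 over all 33 members, -0.094 for fast and -0.040 for slow genes. The median over the members also depended on single tumors. For the tested members it was 0.071 without Ly86 tumor 3, -0.027 without Ly86 tumor 4, -0.76 without Ly86 tumor 1, -0.85 without Ly86 tumor 2 and -0.22 without vector tumor 3. Taking the first pieces alone gave -0.91 and the second pieces alone 0.16. It was -0.090 when the first piece of vector tumor 2 was left out and -0.88 when the second piece of Ly86 tumor 1 was.

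Further muscle genes, listed by their known roles, gave 0 passes of 16 tested sarcomere genes, 0 of 9 excitation and calcium genes and 0 of 17 metabolism genes in limma. At an unadjusted p under 0.05 only Atp2a2 was reached, the pump of slow and non-muscle cells, at -0.31 (SE 0.11, adjusted p = 0.441). Several of these genes followed the members from library to library. The 5 libraries named above were also the highest for 16 of 28 further sarcomere genes, 4 of 18 excitation and calcium genes and 3 of 21 metabolism genes, against 0.721% of all genes tested, where the list counts include genes too low to test. Csrp3, a Z-disc stress sensor, was 0.63 and 25.2 TPM in the pieces of Ly86 tumor 1, and 5.05, 0 and 0 TPM in Ly86 tumors 2 to 4. In vector tumors Csrp3 was 1.01 and 20.7 TPM in tumor 1, 7.92 and 0.99 TPM in tumor 2, and 13.0 TPM in tumor 3. Trdn, which anchors the release channel, reached 7.07 TPM and Pgam2, the muscle phosphoglycerate mutase, 22.6 TPM, both in the second piece of Ly86 tumor 1. These examples were chosen after their values were seen. The most abundant gene of each list did not follow the members: Tpm3, a tropomyosin also made outside muscle, was 434 to 551 TPM, Atp2a2 135 to 212 TPM and the hexokinase gene Hk2 58.5 to 168 TPM.

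Genes of muscle precursors and of the nerve contact were mostly low. Of 18 myogenic regulator and satellite cell genes in the table, Des among them, 7 were tested, with 0 passing. Pax7, the defining factor of satellite cells, was listed at 0 in 9 libraries and at 0.01 TPM in the other. Myod1 reached at most 0.17 TPM and Myog, which acts in fiber formation, at most 1.44 TPM. Myf6, the factor kept in mature fibers, was 1.93 TPM in the second piece of Ly86 tumor 1 and 0.54 TPM in Ly86 tumor 2, and 1.05, 1.10 and 0.92 TPM in the second piece of vector tumor 1, the first of vector tumor 2 and vector tumor 3. It was listed at 0 in the other 5. Pax3, which also acts in pigment cells, was the most abundant, at 52.9 to 90.8 TPM. Of 10 genes of the neuromuscular junction 3 were tested and 0 passed, and the most abundant, Rapsn, which clusters acetylcholine receptors, was 34.6 to 62.4 TPM in all libraries, while the receptor subunit gene Chrna1 stayed at or below 0.35 TPM.

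Marker lists of other tissues are given beside the muscle genes, and their part in the muscle values was not tested. Heart markers summed to 26.1 to 48.6 TPM in Ly86 libraries and 21.4 to 38.9 TPM in vector libraries, mostly from Nppb, a natriuretic peptide, at 15.2 to 41.6 TPM. Myh6, a heavy chain of heart muscle, was listed at 0 in 9 libraries and was 0.03 TPM in the other. None of the 13 heart genes had the members' 5 highest libraries. Smooth muscle markers without Des, which is a member, summed to 109 to 165 TPM in Ly86 libraries and 114 to 342 TPM in vector libraries, and none of those 13 genes had that order.

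Skin and fat markers moved with muscle genes in some libraries and not in others. The sum of 12 keratinocyte genes was 4019 TPM in the first and 258 TPM in the second piece of Ly86 tumor 1, against 83.4 and 1875 TPM for the muscle members, so the pieces were ordered the opposite way. In vector tumor 2 the first piece held more of both, with 1298 and 7.11 TPM for keratinocyte genes. Ly86 tumor 2 had 36.1 TPM of keratinocyte genes at 703 TPM of muscle genes. The 12 adipocyte genes summed to 219 and 426 TPM in the pieces of Ly86 tumor 1, and 782 and 21.8 TPM in those of vector tumor 2. In the pieces of vector tumor 1 they summed to 44.1 and 152 TPM. Pieces of all 3 divided tumors were thus ordered as for the muscle members. Between tumors that order did not hold, with 238 TPM of adipocyte genes in Ly86 tumor 4 at 62.1 TPM of muscle genes. Of the 12, only Car3, a carbonic anhydrase of fat and muscle, had the members' 5 highest libraries, at 24.5 to 119 TPM there. The 10 fibroblast genes summed to 1002 to 2749 TPM in Ly86 libraries and 113 to 4888 TPM in vector libraries, with the peak in the first piece of vector tumor 2. Their pieces were also ordered as for muscle, at 1107 and 1837 TPM in Ly86 tumor 1 and 136 and 440 TPM in vector tumor 1. In vector tumor 2 they were at 4888 and 113 TPM. Ly86 tumor 4 had 2749 TPM of fibroblast genes at 62.1 TPM of muscle genes. All 10 fibroblast genes had higher means in Ly86 tumors at an unadjusted p under 0.05 in limma, against 5.78% of all genes tested. Their smallest limma adjusted p was 0.409. Both results include the first piece of vector tumor 2, and values without it are not given here. Schwann cell and nerve genes summed to 372 to 535 TPM in Ly86 and 423 to 586 TPM in vector libraries.

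**Figure D5:**
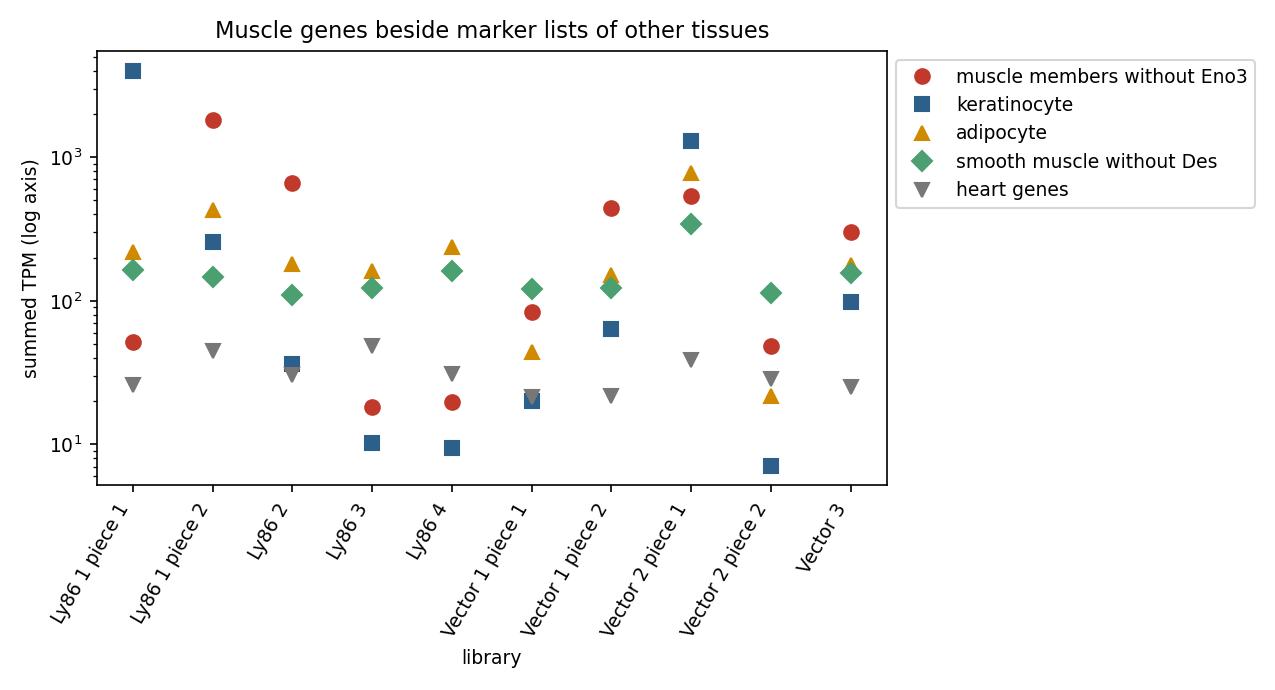
Summed TPM, on a log axis, of the muscle genes without Eno3 and of marker lists for other tissues in each library. Muscle and keratinocyte sums are ordered oppositely in the pieces of Ly86 tumor 1 and alike in those of vector tumors 1 and 2. Heart genes stay between 21.4 and 48.6 TPM.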

How the data were processed

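The authors deposited log2(TPM + 1) values for 27919 gene symbols in 10 libraries. Per the submitters' processing notes, reads were handled with STAR 2.7.10b and RSEM 1.3.3 on mm39; the sources used here do not name the annotation. The log2 scale was read from the values: 99.9% gave a multiple of 0.01 TPM (within 1e-04 hundredths), and TPM summed to 994679 to 996446 a library. TPM keeps no depth, so precision per value is unknown.

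Log2 values of pieces were averaged to 7 tumors. Genes with a mean of at least 1 TPM over tumors (14556) were tested with limma 3.58.1 in R 4.3.3 (lmFit, eBayes with trend), with Benjamini-Hochberg adjustment at 0.05; fold changes are on this scale and understate low genes. The fit was also run on simulated normal values with the same SD in both groups. That run does not cover genes with unequal spread or with values at 0. Members and lists were chosen with earlier results of these data known. Values in every library are given for the 4 myosin heavy chain genes and the 2 most abundant members of each role, and from each further list the most abundant gene is named. Alternatives changed the pseudocount, filter, scaling, variance model, use of pieces, replicate block and tumors included. Figures used matplotlib 3.10.9 in Python 3.11.15.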

Additional observations from a re-analysis of the deposited data

Results flagged for a closer look

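Among the 4 Ly86 tumors, Ly86 tumor 1 stood apart for Ckmt2, the mitochondrial creatine kinase, at 1.27 log2(TPM + 1) with pieces averaged, which comes from 4.47 TPM in its second piece and 0.07 TPM in its first. The same tumor stood apart for Myh7, at 0.021 log2(TPM + 1), a value that rests on 0.03 TPM in 1 piece while the other Ly86 tumors were listed at 0. In each the gap to the nearest of the other tumors was above Dixon's critical share of the range for 4 values. By chance about 1 in 20 groups of normal values without ties would be set apart this way, and 33 genes were looked at. That rate does not hold where tumors share a value of 0. For Myh7 any value above 0 in 1 tumor would have been set apart. For Ckmt2, Ly86 tumors 3 and 4 were both listed at 0. Vector tumors, 3 in number, were not examined for this.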

How the results depend on the processing

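No muscle gene passed limma's adjusted p of 0.05 under any of the alternatives run. Over all genes, 1 passed when first pieces alone were used, 37 with second pieces alone and 3 when the first piece of vector tumor 2 was dropped (added after the data were seen), and 0 to 2 when each tumor was left out in turn. Several small differences changed sign. With second pieces alone, the difference was 0.68 for Myh4, 0.76 for Tcap, 0.46 for Atp2a1 and 0.34 for Ckm, and with the first piece of vector tumor 2 dropped 0.49, 0.51, 0.26 and 0.22. With the tumors numbered alike as a replicate block these were 0.44, 0.48, 0.33 and 0.25, with -0.020 for Eno3. The numbers do not pair the tumors: deviations of same-numbered tumors correlated at -0.17, -0.11 and -0.31. With 10 libraries and the tumor as a random block, Myh4 was 0.053 and Tcap 0.14. With first pieces alone Pvalb was -0.62 and Eno3 -0.20, without the second piece of Ly86 tumor 1 (also added) -0.58 and -0.14, and with a pseudocount of 0.1 Pvalb was -0.35. Leaving out each tumor gave ranges of -0.94 to 0.44 for Myh4, -0.79 to 0.55 for Tcap, -1.37 to 0.35 for Atp2a1, -1.43 to 0.30 for Ckm, -0.74 to 0.68 for Pvalb and -0.075 to 0.15 for Eno3. A pseudocount of 0.1 (added for pieces) moved the median piece difference to -2.77 in vector tumor 1 and 3.00 in vector tumor 2, and the median member difference between groups to -1.05. Troponins in place of myosins gave 7 libraries with more fast than slow mRNA, against 9, of which Ly86 tumor 3 rests on 0.01 TPM. The cause of these shifts was not tested. Read depth is unknown, so differences among values of a few hundredths of a TPM cannot be judged.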

Other observations

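Genes outside the lists had the same 5 highest libraries too. In all, 105 of the 14556 genes tested had the 5 libraries with the most muscle mRNA as their 5 highest. Of these, 23 were members, 12 were on the other lists and 70 on none. Some of the 70 varied little, such as Specc1l, at 15.98 to 22.55 TPM with an SD of 0.15 log2 units over libraries. The median SD over all 14556 genes was 0.29. How many genes would share these 5 libraries by chance was not computed, so the count of 70 is a description. Genes of the 70 with the largest spread, picked here after their values were seen, include Fhl1, a LIM protein of striated muscle. It was at 45.2 TPM in the second piece of Ly86 tumor 1. Eef1a2, the elongation factor form of muscle and neurons, was at 14.2 TPM there. Hspb7, a small heat shock protein of heart and muscle, reached 8.65 TPM, Mybph, myosin-binding protein H, 4.16 TPM and Trim72, a membrane repair protein of muscle, 5.06 TPM, all in that piece. H19, an imprinted noncoding RNA, was highest in the first piece of vector tumor 2, at 41.3 TPM.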
